A study of Mus musculus with 71 samples.

Results

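The 31 genes described here carry out or control the synthesis, uptake, storage and efflux of sterols in mouse cells. They were taken by symbol as a pathway list, with no cutoff on their values, and all 31 are among the 25579 genes of the tables for pro-B cells and progenitors, whereas 29 are among the 24420 genes of the tables for lymphoid cells, which do not list Hmgcs1 and Msmo1. Of the 18 synthesis genes, 7 act in the mevalonate pathway (Acat2, Hmgcs1, Mvk, Pmvk, Mvd, Idi1 and Fdps) and 11 in the steps that make squalene and turn it into the finished sterol ring (Fdft1, Sqle, Lss, Cyp51, Tm7sf2, Msmo1, Nsdhl, Hsd17b7, Ebp, Sc5d and Dhcr7). The other 13 are 5 genes of SREBP control (Insig1, Insig2, Scap, Srebf1 and Srebf2), the LXR receptors Nr1h2 and Nr1h3, 3 genes of efflux and uptake control (Abca1, Abcg1 and Mylip) and 3 genes of esterification and transport (Soat1, Npc1 and Stard4).

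Cells make cholesterol from acetyl-CoA through mevalonate, squalene and lanosterol. When membrane sterol is low, Scap escorts the transcription factor precursors encoded by Srebf1 and Srebf2 out of the endoplasmic reticulum, they are cleaved, and the released factors activate the synthesis genes, whereas the Insig proteins hold Scap back when sterol is plentiful. When oxysterols accumulate, the LXR receptors activate export pumps such as Abca1 and Abcg1 and the ubiquitin ligase Mylip, which removes lipoprotein receptors from the cell surface. Dividing lymphocytes need sterol for new membrane, and proliferation and sterol synthesis are known to be coupled in T cells.

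Poly(A) RNA-seq was carried out on 48 samples of sorted C57BL/6 mouse cells, 31 of pro-B cells and progenitors from bone marrow and 17 of lymphoid progenitors. Pax5 is the transcription factor that commits progenitors to the B cell lineage. In the labels' spelling, where D marks a deletion, fl a floxed allele and a minus sign a null allele, the pro-B groups were Pax5(+/+) with 5 samples and, with 2 samples each, Pax5(DOP/DOP), Pax5(DHD/DHD) and Pax5(DOP,HD/DOP,HD), which lack the octapeptide (OP), the partial homeodomain (HD) or both, and the C-terminal deletions Pax5(DCRD1/DCRD1), Pax5(DCRD1/-), Pax5(DCRD2/DCRD2), Pax5(DCRD2/-), Pax5(DCRD1,2/DCRD1,2) and Pax5(DCRD1,2/-), which lack the C-terminal regulatory domains CRD1, CRD2 or both. Vav-Cre Pax5(fl/fl) progenitors, in which Cre deletes Pax5 throughout the haematopoietic system, were sampled in 2 experiments with 2 samples each, here called Pax5-deficient progenitors. The second experiment also held 2 samples of Vav-Cre Pax5(Prd/fl) progenitors, whose remaining allele encodes only the paired domain (Prd), and 2 of Vav-Cre Pax5(fl/+) pro-B cells, so that all its groups carry Vav-Cre and at least 1 floxed allele. The lymphoid samples were lymphoid-primed multipotent progenitors (LMPP, 2), the successive CD4- CD8- thymocyte stages DN1 (3), DN2a (3), DN2b (3), DN3a (2) and DN3b (2), and Rag2(-/-) DN3a cells (2), which cannot rearrange antigen receptor genes. Pax5(DCRD1,2/-) cells and the Pax5-deficient progenitors of the first experiment were sorted as Ly6D+ Kit-high B220+ cells, a gate that differed from that of Pax5(+/+) cells, and the labels mark both progenitor groups of the second experiment as sorted with an alternative gate. In these groups genotype and sort gate cannot be told apart, and the gate of the Pax5(DCRD1,2/DCRD1,2) RNA samples is not given in the sources used here. The paper reports that Pax5-deficient and Pax5(Prd/fl) progenitors arrest at an early progenitor stage, before committed pro-B cells. Genotype and developmental stage therefore cannot be told apart where these progenitors are compared with pro-B cells. The OP allele was made in embryonic stem cells, and the HD and CRD alleles were made in C57BL/6 x CBA zygotes. All of these alleles, OP included, were backcrossed to C57BL/6 over several generations before analysis. The sort of CRD mutants is described for mice of 3 to 5 wk, and the ages behind the other RNA samples are not given in the sources used here. Of the 3 samples each of DN1, DN2a and DN2b, 2 carry the same replicate number, so they may come from fewer than 3 preparations. The labels number the samples without saying that each came from a separate mouse, so the p-values measure the spread between these samples.

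Values are TPM (transcripts scaled to the same total in each sample), a level per unit of transcript length, so levels of different genes can be set side by side. The read depth recovered from the Pax5-series values lay between 10018678 and 43784791 reads, and the fewest reads behind a member in any sample were 6 for Nr1h3, 35 for Idi1 and 51 for Tm7sf2. Pax5 itself read 342 to 524 TPM in Pax5(+/+) cells and 1129 to 1697 TPM in the Pax5-deficient progenitors. A level taken over the whole gene does not show whether the deletion took place, and the cause of the higher value was not tested. The 8 B-lineage markers summed to 14541 to 18580 TPM in Pax5(+/+) cells and to 5049 to 5878 TPM in the Pax5-deficient progenitors of both experiments. The 8 T-lineage markers summed to 123 TPM in both LMPP samples, where Ptcra was at 0, and to 18427 and 18537 TPM in DN3a cells. Granulocyte markers varied widely within groups, from 727 to 6490 TPM in Pax5(+/+) cells and from 1008 to 15655 TPM in Pax5(DCRD2/-) cells, and their part in the results was not tested.

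To show the DNA next to these genes, the windows from 250 bases before to 50 bases after the annotated transcription start were searched on both strands for the letters TCACNCCAC (like the sterol regulatory element bound by SREBP), CACGTG (an E-box), CCAAT (the box bound by NF-Y) and GGGCGG (a GC box). A RefSeq window was at hand for 25 of the 31 members. The letters CCAAT occurred in 20 of these 25 (80.0%) against 41.1% of 27025 genes with a window, GGGCGG in 22 (88.0%) against 38.2%, CACGTG in 6 (24.0%) against 8.09% and TCACNCCAC in 1 (4.00%, Hmgcs1) against 1.44%. These letter matches are descriptions of short windows, and none of the 4 letter strings is contained in another. Windows of 4 members that the results below turn on are printed 5′ to 3′ on the strand of the gene, from RefSeq on GRCm38.p6, with TCACNCCAC, CACGTG and CCAAT matches on either strand in capitals and GC boxes left in lower case. They are Hmgcs1 (chr13:119690101-119690400, plus strand), the synthase of the mevalonate pathway, Mvd (chr8:122443373-122443672, minus strand), the decarboxylase that makes isopentenyl diphosphate, Mylip (chr13:45389492-45389791, plus strand), and Abca1 (chr4:53159846-53160145, minus strand).
Hmgcs1: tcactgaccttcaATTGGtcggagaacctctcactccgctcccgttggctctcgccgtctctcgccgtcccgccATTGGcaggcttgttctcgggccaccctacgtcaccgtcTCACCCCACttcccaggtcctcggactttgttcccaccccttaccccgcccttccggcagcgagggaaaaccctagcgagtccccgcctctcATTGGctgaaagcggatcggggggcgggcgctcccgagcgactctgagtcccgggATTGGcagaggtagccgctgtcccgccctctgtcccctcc
Mvd: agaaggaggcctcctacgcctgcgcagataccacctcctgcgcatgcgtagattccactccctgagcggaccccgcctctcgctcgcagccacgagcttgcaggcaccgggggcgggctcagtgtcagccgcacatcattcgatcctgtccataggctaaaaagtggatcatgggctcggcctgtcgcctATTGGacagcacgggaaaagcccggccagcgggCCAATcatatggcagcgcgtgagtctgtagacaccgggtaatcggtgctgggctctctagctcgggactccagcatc
Mylip: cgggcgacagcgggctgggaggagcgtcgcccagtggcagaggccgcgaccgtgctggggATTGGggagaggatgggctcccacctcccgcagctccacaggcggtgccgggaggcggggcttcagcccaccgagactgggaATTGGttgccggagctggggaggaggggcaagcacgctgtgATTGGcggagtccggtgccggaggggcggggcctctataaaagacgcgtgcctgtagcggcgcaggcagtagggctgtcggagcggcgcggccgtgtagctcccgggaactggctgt
Abca1: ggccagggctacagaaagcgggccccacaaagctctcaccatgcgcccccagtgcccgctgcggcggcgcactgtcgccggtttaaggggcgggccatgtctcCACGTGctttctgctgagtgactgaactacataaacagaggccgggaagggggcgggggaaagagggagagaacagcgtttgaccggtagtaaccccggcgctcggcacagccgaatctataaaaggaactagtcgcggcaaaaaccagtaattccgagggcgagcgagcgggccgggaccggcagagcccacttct
The Hmgcs1 window holds the single TCACNCCAC match and 4 CCAAT matches, Mvd holds 2 and Mylip 3 CCAAT matches, and Abca1 holds 1 E-box and no CCAAT.

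In Pax5(+/+) pro-B cells 4 of the 7 genes that sense and control sterol stood above every synthesis gene, whereas Insig1 (19.3 TPM), Insig2 (12.5 TPM) and Nr1h3 lay among or below the synthesis genes. The LXR receptor gene Nr1h2 had the highest mean level (315 TPM, coefficient of variation 27.1% over 5 samples), followed by Scap (259 TPM, 14.7%), Srebf2 (211 TPM, 13.2%) and Srebf1 (110 TPM, 15.6%). The highest synthesis gene was Ebp, a sterol isomerase (94.3 TPM, 15.6%), and the uptake regulator Mylip (77.5 TPM, 28.2%), the exporter gene Abcg1 (53.3 TPM, 14.9%) and Dhcr7, the last reductase of the pathway (48.5 TPM, 6.36%), came next. At the low end stood Lss, lanosterol synthase (5.56 TPM, 11.8%), the second LXR receptor gene Nr1h3 (2.02 TPM, 38.0%) and Idi1, an isomerase of isopentenyl diphosphate (1.77 TPM, 27.5%). Neighbours in this order, such as Nr1h2 and Scap or Nr1h3 and Idi1, differed by less than their spread over the 5 samples. Over all 31 samples the ratio of the highest to the lowest level was smallest for Ebp (1.65) and reached 5.04 for Npc1, 5.49 for Msmo1, 7.74 for Mylip, 7.98 for Abca1, 9.14 for Tm7sf2 and 14.8 for Nr1h3.

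**Figure D1:**
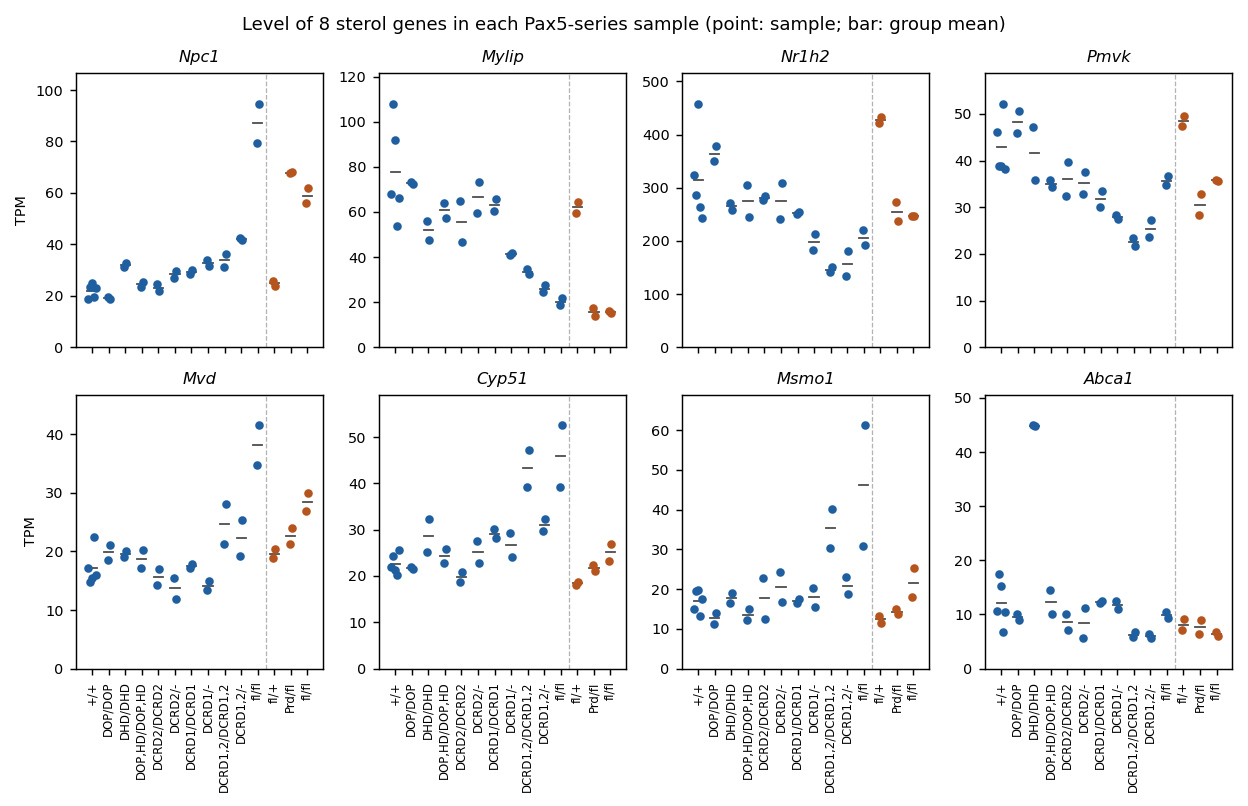
Level of 8 sterol genes (vertical axis, TPM, linear from 0) in each sample of the 14 groups of pro-B cells and progenitors (horizontal axis, Pax5 genotype). Each point is a sample and each short bar a group mean, the dashed line separates the experiment with the Prd allele (orange), and fl denotes a floxed allele deleted by Vav-Cre. Npc1 stands between 55.9 and 94.7 TPM in the progenitor samples fl/fl and Prd/fl and at or below 42.4 TPM elsewhere, Mylip between 13.9 and 21.7 TPM in the same samples, and Abca1 at 44.8 and 45.0 TPM in Pax5(DHD/DHD).

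The first question is how these genes stand in progenitors that lack Pax5 and, per the paper, are arrested before the committed pro-B stage. In Pax5-deficient progenitors of the first experiment, genes of sterol synthesis stood higher than in Pax5(+/+) pro-B cells, Npc1, which moves cholesterol out of lysosomes, rose 3.89-fold, and Mylip fell 4.35-fold. Of the 31 members, 11 were higher and 2 lower (limma, adjusted p under 0.05), which is 41.9%, beside 31.7% of the 13637 genes tested. The median log2 difference was 0.34 over the members and 0.01 over all genes. In bulk samples, a change in the share of a cell type and a change in RNA per cell cannot be told apart.

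Among the mevalonate genes 3 of 7 rose, with a median of 0.94. Mvd read 14.7, 15.5, 22.4, 15.9 and 17.2 TPM in the 5 Pax5(+/+) samples and 34.7 and 41.6 TPM in the Pax5-deficient ones, so the groups did not overlap (log2 difference 1.26, SE 0.20, limma adjusted p = 6.6e-04). Hmgcs1 read 30.7 to 46.7 TPM with a median of 33.1 TPM in Pax5(+/+) cells and 59.2 and 84.8 TPM without Pax5 (0.94, SE 0.21, limma adjusted p = 0.00501). Fdps, which makes farnesyl diphosphate, read 16.6 to 45.1 TPM against 59.0 and 51.7 TPM (1.10, SE 0.31, limma adjusted p = 0.0200). All 3 kept apart from the Pax5(+/+) samples, Fdps by the narrowest margin. In all, 18 of 31 members did not overlap between these groups, and the share over all genes was not computed.

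Of the 11 squalene and ring genes 6 rose, and 11 of 11 had a difference above 0, with a median of 0.63, a count that was 10 without the term for read length, where Ebp gave -0.03. Cyp51, the lanosterol demethylase, read 20.2 to 25.5 TPM in Pax5(+/+) samples and 39.2 and 52.6 TPM without Pax5 (1.01, SE 0.17, limma adjusted p = 0.00115). Sqle, squalene epoxidase, read 28.2 to 39.0 TPM against 59.0 and 76.4 TPM (1.00, SE 0.18, limma adjusted p = 0.00145), and Lss read 4.48 to 6.12 TPM against 11.2 and 15.3 TPM (1.27, SE 0.23, limma adjusted p = 0.00169). These 3 genes, which act one after the other on squalene and lanosterol, rose 2.00- to 2.41-fold. Msmo1, a methylsterol oxidase that acts after Cyp51, read 13.3 to 19.7 TPM against 30.9 and 61.3 TPM (1.28, SE 0.29, limma adjusted p = 0.00596). Dhcr7 read 45.2 to 52.7 TPM against 74.2 and 73.6 TPM (0.63, SE 0.13, limma adjusted p = 0.00358), and Tm7sf2, a sterol reductase, was the last of the 6 (0.89, limma adjusted p = 0.0395). In Msmo1 the 2 Pax5-deficient samples lay far apart, whereas in Dhcr7 they were nearly equal. Summed over the 18 synthesis genes, levels were 429 to 513 TPM in Pax5(+/+) cells and 653 and 759 TPM in these progenitors.

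In the regulatory groups the changes were not uniform. Insig1, a sterol-sensing brake that is itself an SREBP target, read 14.9 to 25.3 TPM in Pax5(+/+) samples and 34.8 and 43.3 TPM without Pax5 (0.87, SE 0.18, limma adjusted p = 0.00410), and no other gene of SREBP control was called. Nr1h2 read 243 to 458 TPM with a median of 287 TPM in Pax5(+/+) samples and 220 and 192 TPM without Pax5 (fell by 0.76, SE 0.20, limma adjusted p = 0.0147). Mylip read 53.8 to 108 TPM in Pax5(+/+) samples and fell to 18.6 and 21.7 TPM (-2.12, SE 0.19, limma adjusted p = 1.1e-05). Npc1 read 18.8 to 24.8 TPM in Pax5(+/+) samples and rose to 79.3 and 94.7 TPM (1.96, SE 0.15, limma adjusted p = 3.7e-06). The exporter genes Abca1 and Abcg1, LXR targets like Mylip, were not called.

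Of these calls 7, those of Cyp51, Dhcr7, Lss, Mvd, Mylip, Npc1 and Sqle, were made in every fit that left out 1 sample. The count of members called was 7 without Pax5-deficient replicate 2, the shallowest library, 10 without Pax5-deficient replicate 1 and 11, 12, 14, 14 and 13 without Pax5(+/+) replicates 1 to 5, and Fdps, Hmgcs1, Insig1, Msmo1, Nr1h2 and Tm7sf2 lost their call in at least 1 of these fits. Other cell types moved with the same comparison: 4 of 6 plasmacytoid dendritic cell markers were higher (150 to 244 TPM summed in Pax5(+/+) cells, 734 and 1144 TPM without Pax5), 6 of 15 macrophage markers were lower and 1 higher, 4 of 5 erythroid markers were lower and 3 of 5 tested T-lineage markers were higher. Of 12 cell cycle genes 10 were lower, with sums of 2531 to 3753 TPM in Pax5(+/+) cells and of 1586 and 1709 TPM without Pax5. None of the macrophage and plasmacytoid markers was at 0 in either group, and the part of these shifts in the sterol result was not tested.

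Neighbouring pathways moved in part. Of 12 genes of fatty acid synthesis and desaturation 6 were higher and 2 lower, among them Fasn, fatty acid synthase (1.35, limma adjusted p = 0.00161), Fads2 (1.23, limma adjusted p = 3.6e-04) and the desaturase gene Scd1 (-5.34, limma adjusted p = 7.9e-06). Of 9 other sterol transport genes Npc2, the partner of Npc1 (0.65, limma adjusted p = 0.00182), and Gramd1b (1.22, limma adjusted p = 0.00206) were higher. The 13 genes that use isoprenoids for other ends gave 1 higher and 1 lower call, and of 4 other LXR targets 1 was lower.

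**Figure D2:**
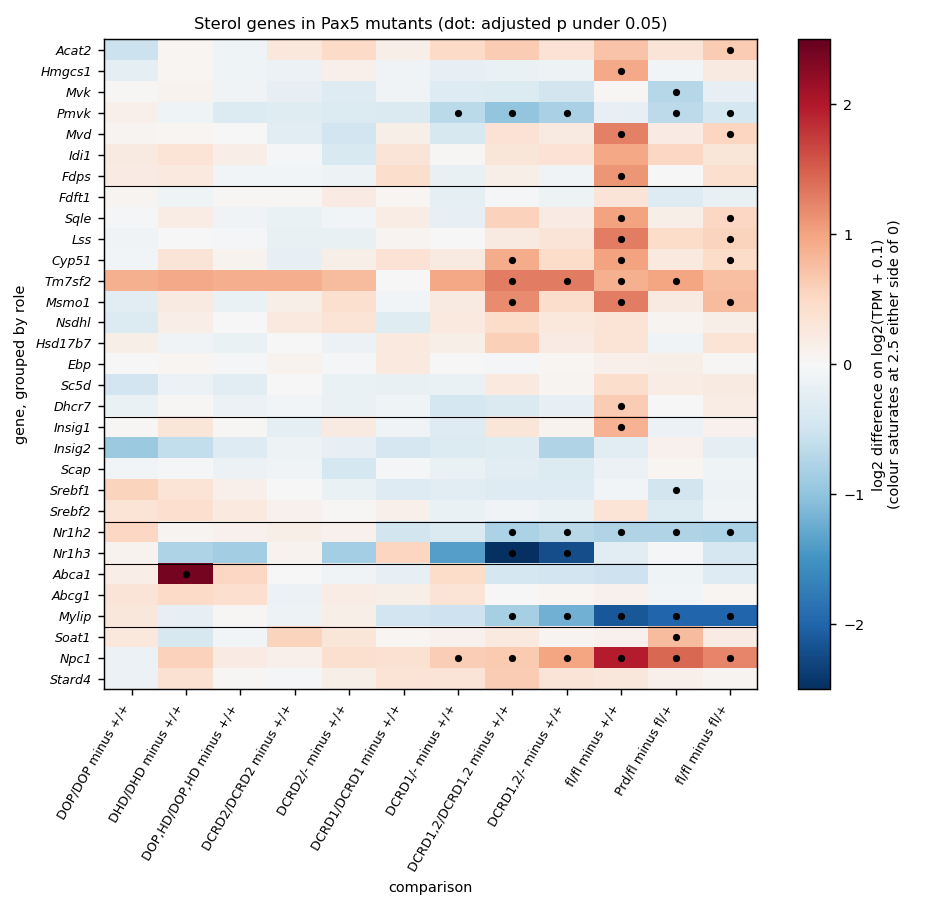
Log2 differences of the 31 members (rows, grouped by role with lines between roles) in 12 comparisons of a Pax5 genotype with its control pro-B cells (columns). Colour gives the difference on log2(TPM + 0.1), saturating at 2.5 either side of 0, and a dot marks an adjusted p under 0.05. The column of Vav-Cre Pax5(fl/fl) against Pax5(+/+) holds 13 dots and the central-domain and CRD2 columns hold 1 in all, Abca1 in Pax5(DHD/DHD). The first 10 columns share the Pax5(+/+) samples and the last 2 share the Pax5(fl/+) samples.

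The second experiment measured Pax5-deficient progenitors against Vav-Cre Pax5(fl/+) pro-B cells, which keep 1 functional Pax5 allele. Here 7 members were higher and 3 lower (limma), 32.3% of the 31, beside 39.9% of the 12941 genes tested, so the members' share was not above the background. Npc1 read 25.9 and 23.9 TPM in Pax5(fl/+) cells and 55.9 and 61.8 TPM in the progenitors (1.23, SE 0.09, limma adjusted p = 1.9e-04). Mylip read 59.5 and 64.6 TPM against 15.9 and 15.3 TPM (-1.98, SE 0.13, limma adjusted p = 1.3e-04), and Nr1h2 read 422 and 433 TPM against 246 and 247 TPM (-0.79, SE 0.09, limma adjusted p = 8.2e-04). In these 3 genes the samples of each group lay close together and far from the other group.

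Smaller differences were called in 6 synthesis genes that were higher and in Pmvk, phosphomevalonate kinase, which was lower. Msmo1 read 13.2 and 11.5 TPM in Pax5(fl/+) cells against 18.0 and 25.3 TPM (0.79, SE 0.18, limma adjusted p = 0.0143), Mvd 18.8 and 20.4 TPM against 26.9 and 30.0 TPM (0.54, SE 0.12, limma adjusted p = 0.0118) and Acat2, which condenses acetyl-CoA, 11.9 and 10.8 TPM against 17.6 and 17.5 TPM (0.63, SE 0.11, limma adjusted p = 0.00603). Cyp51 read 18.1 and 18.7 TPM against 23.3 and 27.0 TPM (0.45, limma adjusted p = 0.0202), Sqle 30.9 and 27.8 TPM against 38.8 and 45.8 TPM (0.52, limma adjusted p = 0.0225) and Lss 5.30 and 5.26 TPM against 7.03 and 8.59 TPM (0.55, limma adjusted p = 0.0331). These 6 genes rose 1.36- to 1.73-fold. Pmvk read 47.4 and 49.5 TPM against 35.9 and 35.6 TPM (-0.44, SE 0.10, limma adjusted p = 0.0152).

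Mylip, Npc1 and Nr1h2 were called in every fit that left out 1 sample of this comparison. The count was 4 and 3 without Pax5(fl/+) replicate 1 or 2, and 9 and 4 without Pax5-deficient replicate 1 or 2. Of 12 cell cycle genes 9 were lower and 1 higher (2767 and 2878 TPM summed against 2149 and 2217 TPM), 5 of 5 plasmacytoid markers, 8 of 9 granulocyte markers and 3 of 4 T-lineage markers were higher, 4 of 12 macrophage markers were lower and 2 higher, and 7 of 8 B-lineage markers were lower, and their part was not tested. Of the 12 fatty acid genes 4 were higher and 3 lower, and of the 9 other transport genes 3 were higher and 1 lower.

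The gates and control genotypes also differ between the 2 experiments. Whether the difference between Pax5-deficient progenitors and their control pro-B cells varied with the experiment was tested as an interaction. In it no member was called and 0.230% of the 13476 genes tested were (limma, 6 members at an unadjusted p under 0.05, and edgeR called 0). The interaction was above 0 for 7 of 7 mevalonate and 11 of 11 squalene and ring genes, with medians of 0.64 for the mevalonate and 0.45 for the squalene and ring genes. These genes share their control by SREBP and were measured in the same samples, so their common sign is not a count of independent results. Insig1 had an interaction of 0.75 (95% interval 0.18 to 1.33, limma adjusted p = 0.437), Mvd of 0.73 (0.27 to 1.18, limma adjusted p = 0.292) and Npc1 of 0.72 (0.22 to 1.23, limma adjusted p = 0.376). The intervals of these single genes exclude 0 before the adjustment for all genes and none passed after it.

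In Pax5(Prd/fl) progenitors, which the paper places at a similar stage of arrest, the remaining allele encodes only the paired domain. Against Pax5(fl/+) pro-B cells 3 members were higher and 5 lower (limma), 25.8% of the 31, beside 40.7% of the genes tested. Npc1 read 67.7 and 68.0 TPM (1.44, SE 0.09, limma adjusted p = 9.9e-05), Mylip 17.6 and 13.9 TPM (-1.98, SE 0.13, limma adjusted p = 1.2e-04) and Nr1h2 273 and 237 TPM (-0.75, SE 0.09, limma adjusted p = 0.00102), against the Pax5(fl/+) values given above. These 3 genes stood on the same side of Pax5(fl/+) as in Pax5-deficient progenitors, a comparison that shares the Pax5(fl/+) samples. Pmvk read 28.3 and 32.8 TPM (-0.66, SE 0.10, limma adjusted p = 0.00294), and mevalonate kinase, Mvk, read 25.5 and 30.6 TPM against 45.8 TPM in both Pax5(fl/+) samples (-0.71, SE 0.11, limma adjusted p = 0.00305). Srebf1 read 86.6 and 107 TPM against 125 and 137 TPM (-0.45, SE 0.11, limma adjusted p = 0.0209). Soat1, which esterifies cholesterol for storage, read 9.76 and 8.94 TPM against 5.72 and 4.99 TPM (0.79, SE 0.20, limma adjusted p = 0.0211), and Tm7sf2 25.4 and 14.3 TPM against 9 and 10.1 TPM (0.99, SE 0.26, limma adjusted p = 0.0223). Of the 18 synthesis genes only Tm7sf2 was called higher, and the summed synthesis level was 421 and 427 TPM beside 418 and 431 TPM in Pax5(fl/+) cells. The count of members called was 5 without either Pax5(fl/+) sample, and 7 and 10 without Pax5(Prd/fl) replicate 1 or 2, and Soat1, Srebf1 and Tm7sf2 lost their call in at least 1 of these fits. In this comparison 10 of 12 cell cycle genes were lower and 1 higher, 5 of 5 plasmacytoid, 3 of 9 granulocyte and 3 of 4 T-lineage markers were higher, 5 of 12 macrophage markers were lower and 1 higher, and 7 of 8 B-lineage markers were lower, and their part was not tested.

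Set directly against Pax5(Prd/fl) progenitors, Pax5-deficient progenitors showed no called member, beside 1.97% of the genes tested (limma, 8 members at an unadjusted p under 0.05, whereas edgeR on recovered reads called 1, Mvk, and limma called 5 without Pax5(Prd/fl) replicate 2). The members with the largest differences above 5 TPM were Soat1 (-0.60, 95% interval -1.08 to -0.11), Msmo1 (0.58, 0.14 to 1.01) and Mvk (0.51, 0.25 to 0.77, limma adjusted p = 0.0778). For Mylip the difference was -0.00 (-0.32 to 0.32) and for Npc1 -0.21 (-0.43 to 0.01).

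Deletion of both C-terminal domains gave the next largest number of calls. In Pax5(DCRD1,2/-) pro-B cells 2 members were higher and 4 lower than in Pax5(+/+) cells (limma), 19.4% of the 31, beside 20.2% of the genes tested. Npc1 read 42.4 and 41.9 TPM, above the 18.8 to 24.8 TPM of Pax5(+/+) cells (0.98, SE 0.17, limma adjusted p = 0.00184), and Mylip 24.3 and 27.7 TPM, below 53.8 to 108 TPM (-1.20, SE 0.21, limma adjusted p = 0.00228). Both lay between the Pax5(+/+) and the Pax5-deficient samples. Pmvk read 23.6 and 27.3 TPM against 38.1 to 52.2 TPM (-0.81, SE 0.17, limma adjusted p = 0.00704) and Nr1h2 134 and 181 TPM against 243 to 458 TPM (-0.70, SE 0.22, limma adjusted p = 0.0482). Nr1h3 read 0.235 and 1.10 TPM, from 7 and 40 reads, against 1.35 to 2.86 TPM (-2.22, SE 0.53, limma adjusted p = 0.0131). The Tm7sf2 call (1.29, limma adjusted p = 0.0159) rested on the term for read length: its values of 9.81 and 7.93 TPM lie inside the 2.78 to 12.1 TPM of Pax5(+/+) cells, and without the term it was 0.56 (limma adjusted p = 0.335). Mylip and Npc1 were called in every fit that left out 1 sample. The count was 2 without Pax5(+/+) replicate 3 and without Pax5(DCRD1,2/-) replicate 1, 4 and 5 without Pax5(+/+) replicates 4 and 5, and 6 without any other sample.

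In homozygous Pax5(DCRD1,2/DCRD1,2) pro-B cells 4 members were higher and 4 lower than in Pax5(+/+) cells (limma), 25.8% of the 31, beside 22.2% of the genes tested. Cyp51 read 39.3 and 47.1 TPM against 20.2 to 25.5 TPM (0.92, SE 0.16, limma adjusted p = 0.00339) and Msmo1 30.3 and 40.2 TPM against 13.3 to 19.7 TPM (1.19, SE 0.29, limma adjusted p = 0.0160). The genes of these enzymes, which remove methyl groups from lanosterol, were higher in both mutant samples than in any Pax5(+/+) sample. In all, 15 of 31 members did not overlap between these groups, and the share over all genes was not computed. Npc1 read 31.4 and 36.3 TPM (0.66, SE 0.17, limma adjusted p = 0.0217), Mylip 34.5 and 32.6 TPM (-0.83, SE 0.22, limma adjusted p = 0.0258) and Nr1h2 141 and 150 TPM (-0.79, SE 0.19, limma adjusted p = 0.0135). Pmvk read 23.4 and 21.6 TPM, the 2 lowest of all 31 samples (-0.98, SE 0.18, limma adjusted p = 0.00411). Nr1h3 read 0.431 and 0.235 TPM, from 11 and 6 reads, and was 7-fold lower (-2.81, SE 0.34, limma adjusted p = 4.0e-04). Tm7sf2 (1.28, limma adjusted p = 0.0221) again overlapped Pax5(+/+) cells and was 0.55 without the read length term (limma adjusted p = 0.378). Cyp51, Nr1h3 and Pmvk were called in every fit that left out 1 sample. The count was 3 without Pax5(+/+) replicate 3, 5 and 3 without Pax5(DCRD1,2/DCRD1,2) replicate 1 or 2, and 8 to 10 without any other sample.

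Other cell types moved with both CRD1,2 comparisons. Macrophage markers were lower in 9 of 15 cases in Pax5(DCRD1,2/-) and in 7 of 15 in homozygous cells (69.2 to 163 TPM summed in Pax5(+/+) cells, 32.6 to 35.5 and 44.1 to 63.1 TPM in the mutants, no marker at 0), erythroid markers in 5 and 3 of 5, and B-lineage markers in 5 of 8 in both. Of 12 cell cycle genes 4 were lower and 1 higher in the hemizygous and 7 were lower in the homozygous cells, and the part of these shifts was not tested. Of the fatty acid genes 3 were lower in Pax5(DCRD1,2/-) cells, with Scd1 at -3.02 and Elovl6, an elongase, at -1.53, and 1 in homozygous cells. Of the 4 other LXR targets 2, Lpcat3 and Arl4c, were lower in both comparisons, and Stard3 and Nceh1 among the sterol transport genes were lower in homozygous cells. A direct comparison of homozygous with hemizygous CRD1,2 cells called no member, beside 0.120% of the genes tested (limma, 3 members at an unadjusted p under 0.05, edgeR 0). Msmo1 differed by 0.75 (95% interval 0.06 to 1.43, limma adjusted p = 0.914), Cyp51 by 0.47 (0.08 to 0.86, limma adjusted p = 0.818) and Insig2 by 0.45 (-0.02 to 0.92).

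With CRD1 alone deleted, 1 member was higher and 1 lower in Pax5(DCRD1/-) cells (limma), 6.45% of the 31, beside 8.51% of the genes tested. Npc1 read 33.8 and 31.7 TPM (0.62, SE 0.17, limma adjusted p = 0.0428) and Pmvk 28.4 and 27.5 TPM (-0.67, SE 0.17, limma adjusted p = 0.0339), both outside the Pax5(+/+) range. In all, 10 of 31 members did not overlap between these groups, and the share over all genes was not computed. Neither call held throughout: the count was 0 without Pax5(+/+) replicate 3 and without either mutant sample, 1 without Pax5(+/+) replicate 1 or 4, and 1 higher and 0 lower after rescaling by median of ratios. Macrophage markers were lower in 6 of 15 cases (36.1 and 49.8 TPM summed), and their part was not tested. In homozygous Pax5(DCRD1/DCRD1) cells no member was called, beside 5.98% of the genes tested (limma, 6 members at an unadjusted p under 0.05, edgeR 0). The largest differences above 5 TPM were Mylip at -0.47 (95% interval -0.93 to -0.01), Nr1h2 at -0.46 (-0.84 to -0.08) and Fdps at 0.43 (-0.29 to 1.15), and Npc1 read 28.5 and 30.0 TPM (0.39, 0.04 to 0.75, limma adjusted p = 0.203).

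What CRD2 adds to the loss of CRD1 was compared directly. Between Pax5(DCRD1,2/-) and Pax5(DCRD1/-) cells no member was called, beside 2.17% of the genes tested (limma, 3 members at an unadjusted p under 0.05, edgeR 0). Abca1 differed by -0.94 (95% interval -1.69 to -0.20, limma adjusted p = 0.224), Mylip by -0.68 (-1.14 to -0.21, limma adjusted p = 0.151) and Mvd by 0.63 (0.15 to 1.12, limma adjusted p = 0.208). Between the homozygous forms 1 member was called, beside 1.42% of the genes tested: Nr1h3 read 0.431 and 0.235 TPM in Pax5(DCRD1,2/DCRD1,2) and 2.08 and 2.25 TPM, from 51 and 46 reads, in Pax5(DCRD1/DCRD1) cells (-3.35, SE 0.46, limma adjusted p = 0.00806), a call lost without either Pax5(DCRD1/DCRD1) sample.

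Loss of CRD2 alone left the members without a call. Granulocyte markers were uneven between the samples, summing to 1008 and 15655 TPM in Pax5(DCRD2/-) and to 564 and 8641 TPM in Pax5(DCRD2/DCRD2) cells. Erythroid markers summed to 168 and 1034 TPM in Pax5(DCRD2/DCRD2) cells, and the part of these markers was not tested. In Pax5(DCRD2/-) cells 0.513% of the genes tested were called and no member (limma, 3 members at an unadjusted p under 0.05, edgeR 0), with Tm7sf2 at 0.79 (95% interval 0.08 to 1.5, but 0.06 without the read length term), Mvd at -0.48 (-0.96 to 0.01) and Acat2 at 0.48 (-0.34 to 1.30). In Pax5(DCRD2/DCRD2) cells 0.0447% were called and no member (limma, 1 member at an unadjusted p under 0.05, edgeR 0), with Tm7sf2 at 0.90 (0.15 to 1.65, but 0.17 without the read length term), Soat1 at 0.55 (-0.11 to 1.20) and Pmvk at -0.31 (-0.71 to 0.09). Between the homozygous and hemizygous CRD2 forms 0.127% of the genes tested and no member were called (limma, 2 members at an unadjusted p under 0.05, edgeR 0), with Insig1 at -0.47 (-0.89 to -0.05), Scap at 0.35 (0.05 to 0.65) and Cyp51 at -0.34 (-0.73 to 0.05).

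For the central domains the comparison used Pax5(+/+) replicates 3 and 4, whose reads were sequenced at the same length as those of the mutants. In Pax5(DHD/DHD) cells 1 of 31 members was called (limma, 3.23%), beside 0.639% of the 12996 genes tested, and that gene was Abca1, the cholesterol exporter. Abca1 read 45.0 and 44.8 TPM in Pax5(DHD/DHD) cells against 6.84 and 10.5 TPM in the 2 Pax5(+/+) samples compared, and no other of the 31 samples exceeded 17.4 TPM. The difference was 5.25-fold (2.39, SE 0.25, limma adjusted p = 0.0123). With 2 samples a group the call was lost without Pax5(+/+) replicate 3 (limma adjusted p = 0.0791) and without Pax5(DHD/DHD) replicate 1 (0.237) or 2 (0.172), while the log2 difference stayed at 2.09 or above. Npc1 read 31.3 and 32.7 TPM against 19.6 and 23.1 TPM (0.58, 95% interval 0.28 to 0.89, limma adjusted p = 0.129) and was called by edgeR on recovered reads. No other LXR target was called: Abcg1 read 66.0 and 59.2 TPM against 43.2 and 46.4 TPM and Mylip 56.2 and 47.4 TPM against 53.8 and 66.1 TPM. Of 15 macrophage markers 4 were lower in Pax5(DHD/DHD) cells (39.2 and 45.7 TPM summed, none at 0), and their part was not tested.

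Abca1 lies on chromosome 4 (GRCm38, 53030789 to 53159988, minus strand), the chromosome of Pax5 (44524748 to 44710694), 8.32 Mb from it. Among genes within 15 Mb of the Pax5 start 5 of 144 (3.47%) were called in Pax5(DHD/DHD) cells, against 74 of 12396 (0.597%) elsewhere. The 5 were Ptpn3 (3.60), Abca1 (2.39), 5730488B01Rik (1.01), Coro2a (0.80) and Zkscan16 (-2.22), named after their values were seen. They include Abca1 itself, so the share in the window is not independent of the Abca1 call. The paper reports that Ptpn3 was similarly regulated in Pax5(DOP/DOP) and Pax5(DHD/DHD) cells. The genes beside Abca1 gave Nipsnap3b 0.17 (limma adjusted p = 0.560) and Slc44a1 0.10 (limma adjusted p = 0.957). In Pax5(DOP,HD/DOP,HD) cells, whose HD was deleted in zygotes that already carried the OP deletion, the shares were 4.86% within the window and 1.18% elsewhere, and in Pax5(DOP/DOP) cells 1.39% and 0.436%. Among the C-terminal deletions they were 13.6% and 8.39% in Pax5(DCRD1/-), 9.72% and 5.94% in Pax5(DCRD1/DCRD1), 0.680% and 0.501% in Pax5(DCRD2/-), 0 of 144 genes and 0.0470% in Pax5(DCRD2/DCRD2), 25.9% and 20% in Pax5(DCRD1,2/-) and 23.6% and 21.9% in Pax5(DCRD1,2/DCRD1,2) cells. In Pax5-deficient progenitors they were 38.8% and 31.2%. Whether DNA linked to the targeted allele takes part in the Abca1 difference was not tested.

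**Figure D3:**
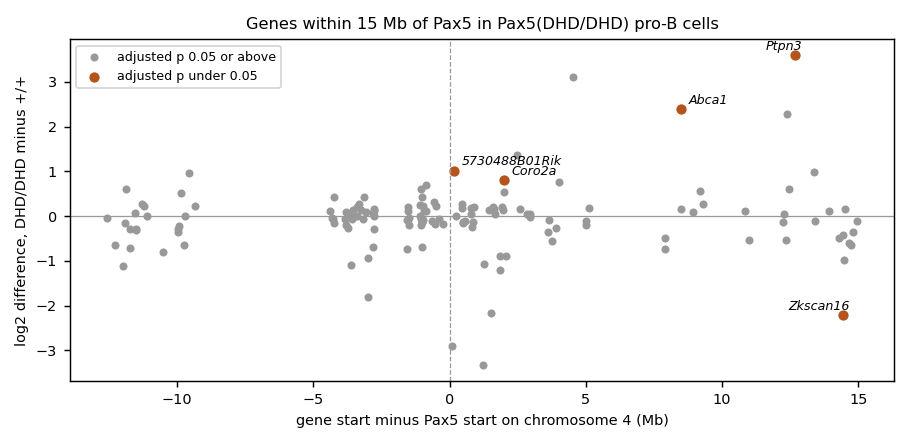
Log2 difference of Pax5(DHD/DHD) minus Pax5(+/+) pro-B cells (vertical axis) for 144 genes by the distance of their start from the Pax5 start on chromosome 4 (horizontal axis, Mb), with the Pax5 position dashed. Orange points have an adjusted p under 0.05. Abca1 lies at 8.51 Mb with a difference of 2.39 among neighbours that are mostly near 0.

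The other central deletions called no member. In Pax5(DOP,HD/DOP,HD) cells 1.22% of the genes tested were called (limma, 4 members at an unadjusted p under 0.05, edgeR 0), and Abca1 read 14.6 and 10.1 TPM (0.52, 95% interval -0.05 to 1.09), Tm7sf2 8.38 and 5.34 TPM (0.90, 0.13 to 1.67) and Abcg1 65.0 and 55.6 TPM (0.42, 0.15 to 0.70, limma adjusted p = 0.165). In Pax5(DOP/DOP) cells 0.485% were called (limma, 6 members at an unadjusted p under 0.05, whereas edgeR called 1, Srebf1). There Insig2 read 7.49 and 5.17 TPM against 10.1 and 14 TPM (-0.92, -1.49 to -0.35), Tm7sf2 5.64 and 7.79 TPM against 2.78 and 4.51 TPM (0.89, 0.12 to 1.66) and Srebf1 134 and 156 TPM against 98.6 and 98.1 TPM (0.55, 0.32 to 0.79, limma adjusted p = 0.0693). The Tm7sf2 difference was near 0.9 against these 2 Pax5(+/+) samples in all 3 central mutants, and those 2 samples were the lowest for Tm7sf2 of all 31.

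Set against each other, Pax5(DOP/DOP) and Pax5(DHD/DHD) cells differed in 2 of 31 members (limma, 6.45%), beside 3.96% of the genes tested. Abca1 was lower in Pax5(DOP/DOP) cells, at 10.1 and 9.04 TPM (-2.22, SE 0.25, limma adjusted p = 0.00486), and so was Npc1, at 19.7 and 18.8 TPM (-0.73, SE 0.13, limma adjusted p = 0.0285). Both calls were lost without any 1 of the 4 samples. In the same comparison Scd1 was 4.27 higher, and 6 of 15 macrophage markers were higher in Pax5(DOP/DOP) cells (163 and 182 TPM summed). Granulocyte markers summed to 6624 and 7028 TPM in Pax5(DOP/DOP) cells and to 408 and 1607 TPM in Pax5(DHD/DHD) cells. The part of these shifts was not tested.

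The lymphoid samples ask how the same genes change as uncommitted progenitors enter the T cell lineage, with 29 members and 16 synthesis genes listed. Summed synthesis levels were 412 to 429 TPM in LMPP, 416 to 461 TPM in DN1, 460 to 571 TPM in DN2a, 609 to 702 TPM in DN2b and 810 to 937 TPM in DN3a, then 607 to 665 TPM in DN3b. Without Dhcr7 the sums were 502 to 576 TPM in DN2b, 578 to 669 TPM in DN3a and 526 to 582 TPM in DN3b, so that the DN3b sums overlapped those of DN2b and DN3a. Rescaling by median of ratios moved the log2 difference of Dhcr7 from 1.16 to 0.88 between DN2b and DN3a and from -1.61 to -1.26 between DN3a and DN3b. The 12 cell cycle genes summed to 1289 to 1654 TPM in LMPP, 1323 to 1502 TPM in DN1, 1397 to 1986 TPM in DN2a, 1908 to 2641 TPM in DN2b, 934 to 1144 TPM in DN3a and 3687 to 3918 TPM in DN3b, and their part was not tested. These tables were made on another genome build, so their levels were not tested against those of pro-B cells.

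**Figure D4:**
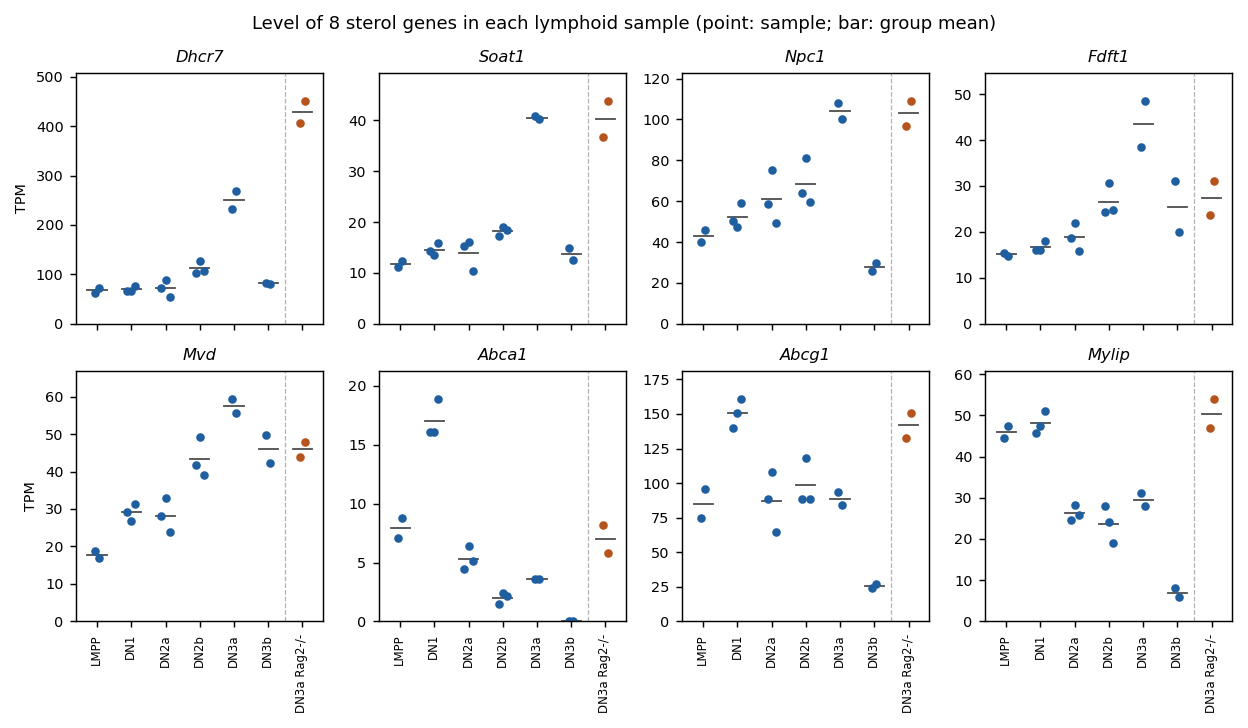
Level of 8 sterol genes (vertical axis, TPM, linear from 0) in each of the 17 lymphoid samples (horizontal axis, stage). Each point is a sample, each bar a group mean, and orange marks Rag2(-/-) DN3a cells beyond the dashed line. Among wild-type stages Dhcr7, Soat1 and Npc1 are highest in DN3a and lower in DN3b, where Abcg1 and Mylip also have their lowest values and Abca1 is under 0.1 TPM.

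From LMPP to DN1 4 members rose and 3 fell (limma), 24.1% of 29, beside 18.6% of the 13482 genes tested. The exporter genes rose together: Abca1 from 7.12 and 8.81 TPM to 18.9, 16.1 and 16.1 TPM (1.09, SE 0.25, limma adjusted p = 0.00601) and Abcg1 from 74.6 and 95.8 TPM to 161, 140 and 151 TPM (0.83, SE 0.19, limma adjusted p = 0.00738). Insig1 fell from 53.0 and 51.1 TPM to 28, 24.9 and 24.2 TPM (-1.02, SE 0.19, limma adjusted p = 0.00171), and Nr1h3 fell from 3.71 and 2.67 TPM to 1.28, 1.52 and 0.656 TPM (-1.45, SE 0.37, limma adjusted p = 0.0123). Mvd rose from 18.7 and 17.0 TPM to 31.2, 29.3 and 26.9 TPM (0.70, SE 0.15, limma adjusted p = 0.00374). Scap read 109 and 141 TPM before and 205, 186 and 185 TPM after (0.63, limma adjusted p = 0.0456), and Ebp 116 and 108 TPM before and 94.5, 83.7 and 88 TPM after (-0.33, limma adjusted p = 0.0478), both near the threshold. Only Insig1 and Mvd of these 7 were called in every fit that left out 1 sample, and the count was 2 without LMPP replicate 1 and 5 without any other sample. Macrophage markers were lower in 9 of 11 cases in DN1 (163 to 205 TPM summed in LMPP, 97.1 to 103 TPM in DN1, where Mertk was at 0), and their part was not tested.

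From DN1 to DN2a 5 members rose and 4 fell (limma), 31% of 29, beside 33.7% of the genes tested. All 3 genes of efflux and uptake control fell. Abca1 fell to 4.41, 5.09 and 6.40 TPM (-1.68, SE 0.22, limma adjusted p = 8.0e-05), Abcg1 to 88.6, 64.9 and 108 TPM (-0.82, SE 0.17, limma adjusted p = 0.00301) and Mylip from 51.0, 45.8 and 47.4 TPM to 24.7, 25.8 and 28.2 TPM (-0.87, SE 0.15, limma adjusted p = 6.8e-04). Of the 4 other LXR targets 3 were tested and 2, Arl4c and Smpdl3a, were lower, of which Smpdl3a was not called after rescaling (-0.39, limma adjusted p = 0.202). Nr1h2 fell from 173, 160 and 155 TPM to 115, 89.7 and 154 TPM (-0.48, SE 0.17, limma adjusted p = 0.0468). The 5 that rose were synthesis genes. Tm7sf2 rose from 11.9, 11.9 and 10.9 TPM to 24.0, 21.3 and 22.1 TPM (0.95, SE 0.13, limma adjusted p = 1.4e-04), Acat2 from 17.1, 16.8 and 13.9 TPM to 26.1, 23.3 and 29.8 TPM (0.72, SE 0.17, limma adjusted p = 0.00552) and Idi1 from 2.03, 1.93 and 1.97 TPM to 3.81, 3.20 and 2.99 TPM (0.72, SE 0.17, limma adjusted p = 0.00633). Sc5d, a sterol desaturase, rose from 14.5, 15.4 and 14.5 TPM to 19.1, 23.4 and 19.7 TPM and Cyp51 from 19.1, 18.4 and 15.3 TPM to 25.8, 23.4 and 24.4 TPM, both by 0.48 (limma adjusted p = 0.00514 and 0.0221). The median over all genes was -0.18 and after rescaling by median of ratios 11 members were higher and 4 lower, so the split moved towards higher calls. The count was 13 without DN2a replicate 2 and 8 without any other sample, with Cyp51 and Nr1h2 losing their call in at least 1 fit.

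From DN2a to DN2b 3 members rose and 1 fell (limma), 13.8% of 29, beside 18.2% of the genes tested. Abca1 fell further, to 2.39, 1.44 and 2.15 TPM (-1.38, SE 0.22, limma adjusted p = 5.2e-04). Mvd rose from 28, 23.8 and 32.9 TPM to 49.3, 41.7 and 39.1 TPM (0.62, SE 0.13, limma adjusted p = 0.00435), Dhcr7 from 73.1, 53.2 and 89.0 TPM to 127, 102 and 107 TPM (0.67, SE 0.16, limma adjusted p = 0.00832) and Fdps from 51.3, 36.4 and 56.2 TPM to 85.0, 69.2 and 73.3 TPM (0.68, SE 0.21, limma adjusted p = 0.0351). In each of these 3 synthesis genes every DN2b sample exceeded every DN2a sample. In all, 11 of 29 members did not overlap between these stages, and the share over all genes was not computed. The count was 12 without DN2a replicate 2, and 3 or 4 without any other sample, with Fdps losing its call. At this step 8 of 12 cell cycle genes rose, and their part was not tested.

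From DN2b to DN3a 13 members rose and 1 fell (limma), 48.3% of 29, beside 45.8% of the genes tested. This step is sensitive to scaling: the median over all genes was 0.27, and after rescaling by median of ratios 5 members were higher and 4 lower. Dhcr7 rose from 127, 102 and 107 TPM to 232 and 268 TPM (1.16, SE 0.18, limma adjusted p = 1.6e-04, 0.88 rescaled) and Soat1 from 19.0, 17.3 and 18.5 TPM to 40.8 and 40.2 TPM (1.15, SE 0.17, limma adjusted p = 1.4e-04, 0.87 rescaled). Hsd17b7, a reductase of the demethylation steps, rose from 7.88, 5.81 and 6.59 TPM to 12.5 and 16.9 TPM (1.10, SE 0.21, limma adjusted p = 8.6e-04, 0.83 rescaled). Insig2 rose from 6.42, 7.62 and 6.74 TPM to 13.1 and 13.5 TPM (0.93, SE 0.15, limma adjusted p = 3.1e-04, 0.66 rescaled) and Npc1 from 81.3, 63.8 and 59.5 TPM to 108 and 100 TPM (0.62, SE 0.18, limma adjusted p = 0.0112, 0.35 rescaled). These 5 genes rose under both scalings. Ebp went the other way, from 86.4, 103 and 89.8 TPM to 57.0 and 55.4 TPM (-0.72, SE 0.11, limma adjusted p = 1.5e-04, -1 rescaled).

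The rises of Abca1 (0.85), Fdft1, squalene synthase (0.71), Nsdhl (0.74), Srebf2 (0.60), Sqle (0.55), Mvk (0.53), Sc5d (0.48) and Mvd (0.41) were called, but not after rescaling. All 8 then kept a difference above 0. Abca1 gave 0.58 (limma adjusted p = 0.0530) and Fdft1 0.44 (limma adjusted p = 0.0560). The others lay further from the threshold, from Srebf2 at 0.32 (limma adjusted p = 0.0985) to Mvd at 0.14 (limma adjusted p = 0.322). Abcg1, Idi1 and Pmvk were instead called lower after rescaling. Before rescaling every DN3a sample exceeded every DN2b sample in the 8 genes that lost their call. In all, 18 of 29 members did not overlap between these stages, and the share over all genes was not computed. Abca1 read 2.39, 1.44 and 2.15 TPM in DN2b and 3.63 and 3.56 TPM in DN3a, Fdft1 30.7, 24.3 and 24.7 TPM and 38.6 and 48.5 TPM, and Nsdhl 14.8, 18.9 and 22.2 TPM and 27.8 and 34.1 TPM. Srebf2 read 277, 197 and 198 TPM and 325 and 346 TPM, Mvk 31.6, 39.7 and 39.1 TPM and 53.6 and 51.9 TPM, and Sc5d 24.6, 25.9 and 25.2 TPM and 33.2 and 37.5 TPM. Dhcr7, Ebp, Hsd17b7, Insig2 and Soat1 were called in every fit that left out 1 sample. The count was 9 and 7 without DN3a replicate 1 or 2, 11 without either of the 2 DN2b samples numbered 2 and 16 without DN2b replicate 1. Of 7 genes of SREBP processing and turnover 3 rose and 1 fell, with the protease gene Mbtps1 at 1.22 (limma adjusted p = 3.6e-05), of 12 fatty acid genes 4 rose, and 11 of 12 cell cycle genes fell.

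From DN3a to DN3b, the step at which cells with a functional T cell receptor beta chain start to divide, 12 members fell and 1 rose (limma), 44.8% of 29, beside 53.4% of the genes tested. The median over all genes was -0.41, and after rescaling 3 members were higher and 8 lower. Abca1 fell from 3.63 and 3.56 TPM to 0.0678 and 0.0292 TPM (-4.65, SE 0.27, limma adjusted p = 2.1e-08), a size that depends on the pseudocount because both DN3b values lie below it. Mylip fell from 31.1 and 28 TPM to 8.10 and 5.88 TPM (-2.08, SE 0.18, limma adjusted p = 7.4e-07, -1.73 rescaled) and Abcg1 from 93.5 and 84.2 TPM to 24.0 and 27.4 TPM (-1.79, SE 0.21, limma adjusted p = 1.0e-05, -1.44 rescaled). All 3 genes of efflux and uptake control thus fell, and so did the 3 tested of 4 other LXR targets, Arl4c (-2.95, -2.60 rescaled), Smpdl3a (-1.77, -1.42 rescaled) and Lpcat3 (-0.47), the last of which was no longer called after rescaling (-0.12, limma adjusted p = 0.386). The Nr1h3 call (-1.22, SE 0.40, limma adjusted p = 0.0194) was also lost after rescaling (-0.91, limma adjusted p = 0.0653), whereas Nr1h2, at 207 and 187 TPM before and 167 and 150 TPM after, was not called.

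Npc1 fell from 108 and 100 TPM to 25.6 and 29.7 TPM (-1.91, SE 0.19, limma adjusted p = 2.5e-06, -1.56 rescaled) and Soat1 to 14.9 and 12.6 TPM (-1.55, SE 0.19, limma adjusted p = 1.3e-05, -1.20 rescaled). Dhcr7 fell to 82.7 and 81.3 TPM (-1.61, SE 0.19, limma adjusted p = 1.2e-05, -1.26 rescaled). Each of these 3 returned below or near its DN2a level. Of the other synthesis genes Hsd17b7 (-0.93), Fdft1 (-0.80), Tm7sf2 (-0.76) and Sc5d (-0.58) fell, as did Insig2 (-0.74), of which only Hsd17b7 and Tm7sf2 were still called after rescaling. Hsd17b7 read 12.5 and 16.9 TPM before and 7.83 and 7.33 TPM after, Fdft1 38.6 and 48.5 TPM and 31 and 19.9 TPM, and Tm7sf2 25 and 27.9 TPM and 14.7 and 16.4 TPM. Sc5d read 33.2 and 37.5 TPM before and 25.6 and 21.8 TPM after, and Insig2 13.1 and 13.5 TPM and 7.64 and 8.21 TPM. In all, 22 of 29 members, these 5 among them, did not overlap between the stages, and the share over all genes was not computed. Pmvk rose from 23.4 and 26.3 TPM to 36.9 and 38.5 TPM (0.60, SE 0.14, limma adjusted p = 0.00194, 0.95 rescaled). The 6 mevalonate genes had a median of 0.07 and the 10 squalene and ring genes of -0.62, with 0 and 5 falls (0 and 3 after rescaling). The count was 11 without DN3a replicate 2 and without DN3b replicate 2, 13 and 12 without the other replicates, and Fdft1, Hsd17b7 and Nr1h3 lost their call in at least 1 fit. All 12 cell cycle genes rose, 7 of 9 other sterol transport genes fell while Tmem97 rose (1.42, limma adjusted p = 2.9e-07), 5 of 7 genes of SREBP processing fell and 6 of 12 fatty acid genes fell.

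**Figure D5:**
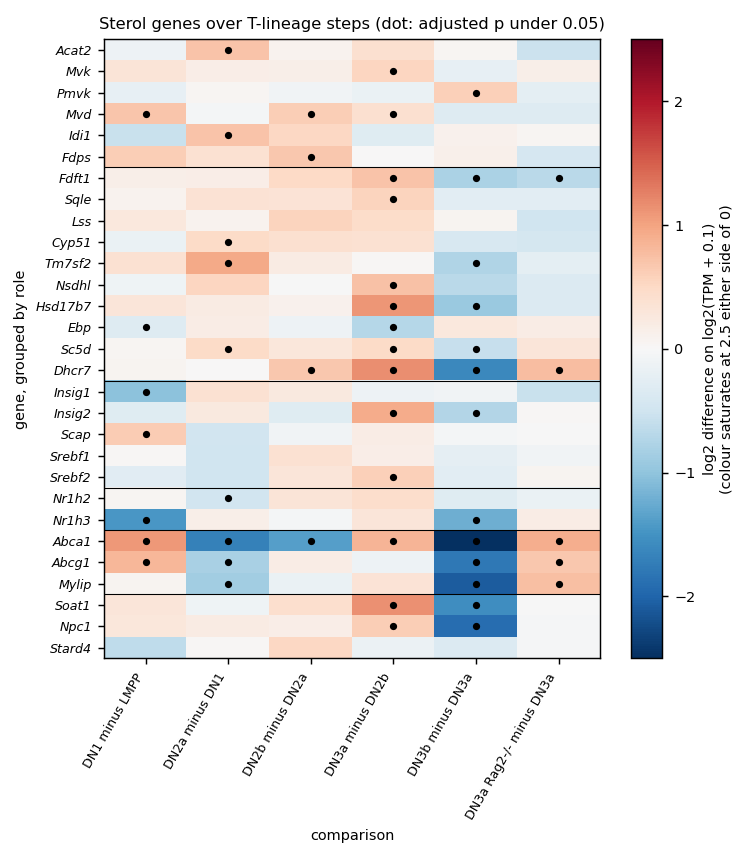
Log2 differences of the 29 listed members (rows, grouped by role with lines between roles) over 5 steps of T-lineage development and between Rag2(-/-) and wild-type DN3a cells (columns). Colour gives the difference on log2(TPM + 0.1), saturating at 2.5 either side of 0, and a dot marks an adjusted p under 0.05. The column from DN2b to DN3a holds 13 rises and that from DN3a to DN3b 12 falls. Neighbouring columns share a stage.

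Rag2(-/-) DN3a cells cannot pass to DN3b and allow DN3a to be seen without rearranged receptors. Here 4 members were higher and 1 lower than in wild-type DN3a cells (limma), 17.2% of 29, beside 26.4% of the genes tested, and with a median over all genes of -0.18 the split was 6 higher and 0 lower after rescaling. The 3 efflux and uptake genes were all higher: Mylip read 46.8 and 54.0 TPM against 31.1 and 28 TPM (0.76, SE 0.18, limma adjusted p = 0.00811), Abca1 8.15 and 5.78 TPM against 3.63 and 3.56 TPM (0.91, SE 0.27, limma adjusted p = 0.0238) and Abcg1 133 and 151 TPM against 93.5 and 84.2 TPM (0.68, SE 0.21, limma adjusted p = 0.0305). Their direction was thus opposite to that from DN3a to DN3b, a comparison that shares the wild-type DN3a samples. Dhcr7 was also higher, at 406 and 451 TPM (0.78, SE 0.19, limma adjusted p = 0.0100), the highest levels of any member in the lymphoid samples. Fdft1 was lower, at 23.6 and 31.1 TPM against 38.6 and 48.5 TPM (-0.67, SE 0.22, limma adjusted p = 0.0392, and 0.0805 after rescaling). No call was made in every fit: the count was 2 without either Rag2(-/-) sample or DN3a replicate 1 and 1 without DN3a replicate 2. Macrophage markers were higher in 6 of 11 cases (25 and 55.5 TPM summed against 22.4 and 25.3 TPM, with Cd36 at 0) and all 12 cell cycle genes were lower (423 and 511 TPM summed), and their part was not tested.

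Exons of 7 members overlap another gene in the RefSeq annotation of GRCm38.p6: Mvd shares 34.4% of its exon bases with Gm51557, Fdft1 7.49% with Ctsb, Lss 5.55% with 4930483K19Rik, Npc1 5.40% with Rmc1, Srebf1 1.82% with Rai1, Nr1h3 0.831% with Acp2 and Tm7sf2 0.609% with Vps51. The first 6 overlaps lie on opposite strands, and since the counting is not stated to use strand, reads from the shared bases cannot be assigned with certainty. In the lymphoid tables Fdft1, Lss, Tm7sf2, Srebf1 and Npc1 stand under names with an overlap suffix.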

How the data were processed

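Poly(A) RNA-seq of 48 samples was used, and the ATAC-seq and ChIP-seq samples were not analysed here. Per the labels and the study's methods, the authors trimmed reads of the pro-B and progenitor samples to 1 length, aligned them with STAR 2.4.2a to GRCm38 (mm10), counted them over RefSeq genes and deposited TPM values per gene, and aligned the lymphoid samples with TopHat 1.4.1 to mm9. Whether the counting used strand is not given in the sources used here. The deposited lymphoid tables hold 2 values per gene, treated as a score whose mean was used as TPM, with entries of exactly 1 read as 0. Of the Pax5-series tables, of which there are 31, those of 8 samples carry no gene names and were read in the row order of the named ones, which was checked: zeros matched on 25579 of 25579 rows, and implied gene lengths stood in 1 ratio within 1% on 11662 of 11662 rows, against 98 of 8063 (1.22%) with rows shifted by 1.

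Values were tested as log2(TPM + 0.1) with limma 3.58.1 (R 4.3.3; Python 3.11.15 for tables), a moderated two-sided test with a mean-variance trend and Benjamini-Hochberg adjustment over all genes that passed 1 TPM in any sample of the model. Fold changes are on that scale and understate those of low genes. A gene was called at an adjusted p under 0.05. Central deletions were set against Pax5(+/+) replicates 3 and 4, and the C-terminal deletions and Pax5-deficient progenitors against all 5, with a term for the read length as sequenced (50 or 100 bases). Since the reads were trimmed before alignment, read length and other differences between the samples of either length cannot be told apart. Sequencing depth of 10018678 to 43784791 reads was recovered from the steps of the TPM values, which came out whole to within 0.1 read, and edgeR 4.0.16 was run on these reads as an alternative. Depth of the lymphoid samples is unknown. Other alternatives were a pseudocount of 1, no filter, median-of-ratios rescaling, no trend, a replicate block and leaving out each sample. The scripts were tested on simulated data.

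The members, gene lists and marker lists were chosen with earlier results of these data known, although no cutoff on values selected the members. All members could be named: called members are given with sample values, for the 12 of smallest adjusted p in a comparison, other called members without them, and where none was called the 3 with the largest difference and a mean above 5 TPM are given.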

Additional observations from a re-analysis of the deposited data

How the results depend on the processing

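Over all called members no direction reversed: of the values under other settings 684 stayed on their side of the threshold and 57 lost their call, and with 1 sample left out 394 stayed and 152 lost it. In the counts of members called, edgeR on recovered reads gave 2 for Pax5(DHD/DHD) (Npc1 added) and 1 for Pax5(DOP/DOP), each against Pax5(+/+), and 1 for Pax5-deficient against Pax5(Prd/fl) progenitors. Without the trend the counts were 0 for Pax5(DHD/DHD), 1 for Pax5(DOP/DOP) against Pax5(DHD/DHD) and 0 for Pax5(DCRD1/-). For Pax5(DCRD1/-) the count of 2 became 1 with edgeR, with rescaling, without the filter and with samples of 1 read length, and 4 without the read length term. Rescaling gave 15 from DN1 to DN2a and 9 from DN2b to DN3a. The cause was not tested.

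With 1 sample left out, the counts ranged from 2 to 5 for DN1 against LMPP, from 8 to 13 for DN2a, from 3 to 12 for DN2b, from 7 to 16 for DN3a, from 11 to 13 for DN3b and from 1 to 2 for Rag2(-/-). They ranged from 7 to 14 for Pax5-deficient progenitors, from 3 to 9 for those of the second experiment, from 5 to 10 for Pax5(Prd/fl), and from 0 to 5 between these last 2. They ranged from 2 to 6 for Pax5(DCRD1,2/-), from 3 to 10 for Pax5(DCRD1,2/DCRD1,2), from 0 to 1 against Pax5(DCRD1/DCRD1), from 0 to 2 for Pax5(DCRD1/-), from 0 to 1 for Pax5(DHD/DHD) and were 0 throughout for Pax5(DOP/DOP) against Pax5(DHD/DHD). Where 1 sample remained in a group, it was assumed to vary like the others.

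Deviations from the group mean of samples with the same replicate number had median correlations of -0.10 to 0.07. In a group of 2 the deviations of the samples mirror each other. These values therefore cannot show whether samples of the same number were prepared together. A replicate block raised the count for Pax5(DCRD1/DCRD1) from 0 to 2 (Insig2 and Mylip) and moved no other count by over 1.5 times. It could not be fitted for the central deletions and the single-length mutants against Pax5(+/+).

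Most groups hold 2 samples, and Nr1h3 rests on as few as 6 reads in a sample.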
